A study of Homo sapiens with 44 samples.

Results

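A549 cells, a human lung adenocarcinoma line, were compared with and without lowered IRF2BP2 while exposed to tumour necrosis factor (TNF). The comparison holds 6 of the 44 samples of the series, 3 labelled siIRF2BP2 with TNF and 3 labelled siNON with TNF, and they were taken by cell line, small interfering RNA (siRNA) and treatment. All 6 were transfected with 20 nM siRNA in steroid-depleted medium for 72 h and then given TNF at 10 ng/ml for 6 h. siIRF2BP2 is 1 commercial pool of siRNAs against IRF2BP2 and siNON is 1 non-targeting pool, so no second pool against the gene was compared. The other A549 samples received vehicle (ethanol), 100 nM dexamethasone (dex, a synthetic glucocorticoid) or dex plus TNF, each with both siRNAs in 3 samples, and the series also covers HEK293-GR cells, a kidney-derived line that stably expresses the glucocorticoid receptor. Polyadenylated RNA was sequenced.

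The deposited A549 table gives 1 FPKM value (fragments per kilobase of gene length, scaled by the tags of the column) per group, pooled over its 3 samples, so no spread between samples could be computed. Calls are therefore those of the authors' deposited table, at its false discovery rate (FDR) under 0.05. The test behind that FDR, and whether it used the 3 samples of a group, is not given in the sources used here. Fold changes are siIRF2BP2 over siNON on the log2 scale. The pooled TNF columns held 43.3 M tags with siNON and 47.4 M with siIRF2BP2, and the other 6 A549 columns 35.8 to 56.9 M. Of 25689 gene symbols, each represented by its transcript with the most reads, 14111 had a mean of at least 30 reads per column and are counted below. The length used for FPKM was the genomic span in 98.6% of transcripts, so FPKM values are compared between conditions for 1 gene and not between genes.

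IRF2BP2 belongs to a small family of nuclear proteins with a zinc finger and a RING domain, known as corepressors that bind interferon regulatory factor 2 (IRF2). TNF acts through its receptor, adaptor proteins and the IKK kinases to free the transcription factor NF-kB, which induces chemokines, adhesion molecules and its own inhibitors. In epithelial cells TNF also raises interferon-responsive genes and the MHC class I pathway, which carries peptides to the cell surface.

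The promoters of 6 genes named below are shown for their matches to motifs of these pathways. They were chosen after their values were seen, and each of them holds a match. The sequences are the 250 bases before the RefSeq transcription start (GRCh38.p14), 5′ to 3′ in the direction of the gene. Capitals mark a match, on either strand, to a kappaB motif (GGGNNTTNCC), to the interferon-stimulated response element (ISRE, GAAANNGAAA) or to a CArG pattern (CCNTATNNGG). The CArG pattern does not cover every form of the CArG box of serum response factor. CXCL10 (chr4:76023498-76023747, minus strand) and TAP1 (chr6:32853705-32853954, minus strand) hold both an ISRE and a kappaB match, as does B2M (chr15:44711267-44711516, plus strand). The ISRE matches of TAP1 overlap each other, as do those of B2M. UBD (chr6:29559733-29559982, minus strand) and CXCL1 (chr4:73869143-73869392, plus strand) hold a kappaB match. EGR1 (chr5:138465229-138465478, plus strand) holds 2 matches to the CArG pattern. Other genes named below hold no match to these patterns, among them CXCL8, PTGS2, FOS, FOSB, JUN, KLF2, PSMB9, HLA-C, SERPINA3, ID1 and INSIG1.
CXCL10: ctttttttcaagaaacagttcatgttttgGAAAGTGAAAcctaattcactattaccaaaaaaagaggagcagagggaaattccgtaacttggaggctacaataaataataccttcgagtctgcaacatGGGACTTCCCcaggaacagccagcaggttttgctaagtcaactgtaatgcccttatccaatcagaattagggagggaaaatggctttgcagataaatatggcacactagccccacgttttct
TAP1: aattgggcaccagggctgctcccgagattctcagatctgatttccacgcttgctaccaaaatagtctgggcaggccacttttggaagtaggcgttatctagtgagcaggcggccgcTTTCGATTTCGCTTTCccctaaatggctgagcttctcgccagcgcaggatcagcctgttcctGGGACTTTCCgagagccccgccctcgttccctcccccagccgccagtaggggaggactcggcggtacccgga
B2M: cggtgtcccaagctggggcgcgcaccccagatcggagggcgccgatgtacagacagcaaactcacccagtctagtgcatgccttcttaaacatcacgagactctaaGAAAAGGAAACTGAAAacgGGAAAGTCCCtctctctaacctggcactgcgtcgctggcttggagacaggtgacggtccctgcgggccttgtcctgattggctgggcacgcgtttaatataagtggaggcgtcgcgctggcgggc
UBD: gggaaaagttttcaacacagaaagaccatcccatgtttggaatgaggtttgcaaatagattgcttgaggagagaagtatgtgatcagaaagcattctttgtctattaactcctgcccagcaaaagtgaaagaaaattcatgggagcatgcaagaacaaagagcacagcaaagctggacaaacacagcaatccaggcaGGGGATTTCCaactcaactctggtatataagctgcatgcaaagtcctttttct
CXCL1: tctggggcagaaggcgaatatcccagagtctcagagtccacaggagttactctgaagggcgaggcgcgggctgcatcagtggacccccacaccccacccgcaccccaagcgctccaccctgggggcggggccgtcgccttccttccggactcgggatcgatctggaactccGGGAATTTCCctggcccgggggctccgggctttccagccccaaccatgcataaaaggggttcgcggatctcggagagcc
EGR1: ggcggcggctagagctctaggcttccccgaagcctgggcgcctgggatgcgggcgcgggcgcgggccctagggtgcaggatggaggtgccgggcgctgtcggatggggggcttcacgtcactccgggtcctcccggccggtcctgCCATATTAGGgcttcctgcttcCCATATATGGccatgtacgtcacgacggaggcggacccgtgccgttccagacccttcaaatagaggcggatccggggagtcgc

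A match is a description of these letters and was not tested as a binding site. Among the 11149 tested genes with a promoter sequence, 2.30% held an ISRE match, 6.10% a kappaB match and 0.951% a match to the CArG pattern. Of the interferon response genes with a sequence, 15 of 25 held an ISRE match, and of the MHC class I genes 7 of 14. A kappaB match stood in 8 of 14 chemokine and cytokine promoters, 3 of the 7 that fell and 3 of the 4 that rose among them. It stood in 5 of 14 promoters of NF-kB inhibitors and feedback genes, and in 2 of 19 of adhesion and effector genes. In the immediate early list 1 of 25 promoters held a match to the CArG pattern, that of EGR1.

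IRF2BP2 RNA was 26.3 FPKM with siNON and 21.4 FPKM with siIRF2BP2 under TNF. The gene lies at chr1:234740016-234745271 on the minus strand (hg19). Its log2 fold change was -0.40 in the authors' deposited table (FDR 0.000293), and the log2 ratio of the pooled FPKM was -0.30. Beside it, that table gave -0.31 under vehicle, -0.66 under dex and -0.62 under dex plus TNF. The RNA of the targeted gene was thus lowered by a modest amount at the time of harvest, and protein was not measured. Of 17 A549 and lung markers 13 were tested, of which 3 rose and 8 fell in the authors' deposited table. The keratin gene KRT18, which overlaps KRT8, was at 642 and 327 FPKM and ALDH3A1, an aldehyde dehydrogenase, at 249 and 75.9 FPKM. NKX2-1, a lung lineage factor, was near 0 in both TNF columns (0 and 0.006 FPKM), and the 4 surfactant genes on the list did not pass 0.03 FPKM. Of 18 blood, endothelial and fibroblast markers 7 were at 0 in both TNF columns, among them PTPRC, the pan-leukocyte marker. Of the 6 tested members, COL1A1 was called higher (2.07 and 3.65 FPKM) and LUM lower (0.259 and 0.122 FPKM) in the authors' deposited table. CD68 was at 18.9 and 18.4 FPKM. Of 14 HEK293 markers 7 were tested, of which 2 rose and 3 fell in that table, and none of the 14 passed 3.13 FPKM in either TNF column. The part of these markers in the results was not tested. In samples of many cells, fewer cells of a type and less RNA per cell cannot be told apart.

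Across the tested genes the knockdown changed many genes, mostly by small amounts. By the authors' deposited table, genes called higher numbered 3190 (22.6%) and those called lower 3109 (22.0%), together 44.6% of those tested. A change of at least 1 was called higher in 231 (1.64%) and lower in 560 (3.97%). The median gene stood at 0.02, with quartiles at -0.26 and 0.28. The shares called higher and lower were 18.6% and 20.8% under vehicle, 17.5% and 18.9% under dex and 20.7% and 20.7% under dex plus TNF. With so many genes called, a count within a list is read against the shares of its treatment. The lists were chosen with earlier results of these data known, so that reading is a description and not a test.

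EGR1, an immediate early transcription factor, was at 17.8 FPKM with siNON and 0.514 FPKM with siIRF2BP2, and the authors' deposited table gave -5.22 (FDR 1.29e-187), the largest fall among tested protein-coding genes that met the rule for named genes. TGFA, a ligand of the EGF receptor, was at 0.276 and 0.037 FPKM (-2.99 in the authors' deposited table). SPNS2, a sphingosine-1-phosphate transporter that overlaps MYBBP1A, was at 0.457 and 0.060 FPKM, and VGF, a secreted neuropeptide precursor, at 10.0 and 1.53 FPKM. The authors' deposited table gave -3.02 for SPNS2, -2.81 for VGF, -2.77 for ENTPD2, an ectonucleotidase, -2.76 for GEM, a small GTPase, -2.68 for CREB3L1, a membrane-bound transcription factor, and -2.68 for the clock repressor NR1D1, which overlaps THRA. Each of these falls was also called under vehicle.

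Among the rises, HK2, the hexokinase that starts glycolysis, was at 0.021 FPKM with siNON (55 reads) and 0.133 FPKM with siIRF2BP2 (382 reads). It rose by 2.59 in the authors' deposited table under TNF and stood at -0.21, not called, under vehicle, at 0.114 and 0.091 FPKM. HK2 was also called higher in that table under dex (1.18) and dex plus TNF (2.41). Its TNF response there was -2.07 with siNON, called, and 0.73 with siIRF2BP2, not called. The higher value under TNF thus stood beside a fall with TNF in the siNON cells. Under TNF ID4 and ID1, inhibitors of helix-loop-helix transcription factors, rose by 2.40 and 1.72, and ATOH8, a helix-loop-helix factor, by 2.39 in the authors' deposited table. ID1 was at 33.6 and 116 FPKM under TNF and 85.2 and 166 FPKM under vehicle. ATOH8 was at 0.028 and 0.158 FPKM under TNF and 0.132 and 0.260 FPKM under vehicle. FGA, the fibrinogen alpha chain, was at 11.0 and 40.4 FPKM under TNF and 12.5 and 41.6 FPKM under vehicle, so its level with each siRNA was near the same with and without TNF. FOXN4, a forkhead factor, rested on 77 and 361 reads and rose by 2.03 in the authors' deposited table. ANGPTL4, an inhibitor of lipoprotein lipase, was at 0.589 and 2.25 FPKM.

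**Figure D1:**
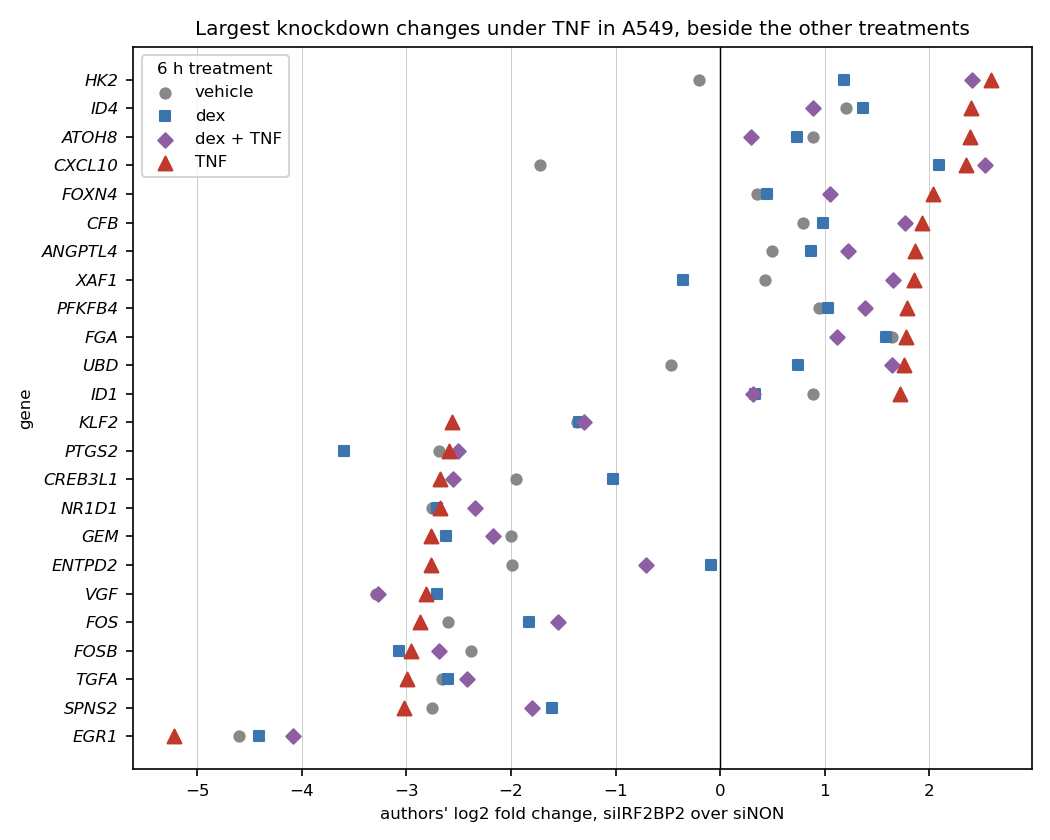
Log2 fold change (x axis, siIRF2BP2 over siNON, from the authors' deposited table) of the 12 largest rises and 12 largest falls under TNF (y axis), with the values under vehicle, dex and dex plus TNF beside them. EGR1 lies furthest left under all 4 treatments, while HK2, CXCL10 and UBD are above 0 under TNF and below 0, without a call, under vehicle, where CXCL10 rests on 1 read with siNON and 0 with siIRF2BP2.

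Most interferon response genes were higher with siIRF2BP2 under TNF. Of 34 tested, 27 rose and 1 fell in the authors' deposited table, with a median of 0.64 beside 0.02 for all genes. Under vehicle 11 rose and 4 fell, with a median of 0.27. The list was also mostly higher under dex without TNF, where 16 rose and 1 fell in that table (median 0.45). Under dex plus TNF 20 rose and 2 fell (median 0.68). GBP2, an interferon-induced GTPase, was at 0.989 FPKM with siNON and 3.33 FPKM with siIRF2BP2. Its relative GBP1 was at 1.65 and 4.68 FPKM. Both were under 0.3 FPKM under vehicle with either siRNA. IFI6, a mitochondrial antiviral protein, was at 1.63 and 3.96 FPKM under TNF, 1.77 and 1.75 FPKM under vehicle, 1.08 and 2.56 FPKM under dex and 1.58 and 1.93 FPKM under dex plus TNF. It was called higher in the authors' deposited table under TNF and dex, and not under vehicle or dex plus TNF. The authors' deposited table gave 1.66 for GBP2, 1.41 for GBP1, 1.20 for IFI6, 1.85 for XAF1, an apoptosis factor, and 1.26 for PARP9, which overlaps DTX3L.

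Transcription factors of the interferon response were among the genes that rose. The factors IRF9 (0.87) and STAT2 (0.59) rose in the authors' deposited table, while IRF1, itself induced by TNF, stood at 0.13 without a call. IRF7, the factor of the later interferon response, was at 3.62 and 5.78 FPKM under TNF but 2.08 and 1.15 FPKM under vehicle. The authors' deposited table called it in opposite directions, at 0.59 and -0.94, and did the same for ISG20, an antiviral exonuclease (0.62 and -0.54). IRF3 was the member that fell (-0.23 in the authors' deposited table). Among 6 interferon genes looked up after the values were seen, none exceeded 0.075 FPKM in either TNF column, and IFNG was at 0 in both.

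Nearly every tested gene of the MHC class I pathway was higher under TNF. Of 17 tested members 16 rose and none fell in the authors' deposited table, with a median of 0.58, and HLA-E was the member not called (0.05). Under vehicle 2 rose and 1 fell, with a median of 0.15, and under dex 3 rose and 1 fell (median 0.12). Under dex plus TNF 14 rose and none fell in the authors' deposited table (median 0.54). All 17 had a higher value under TNF than under vehicle, as did 7493 of the 14111 tested genes, a difference that was not tested. B2M, the light chain of the class I molecule, was at 65.7 FPKM with siNON and 99.0 FPKM with siIRF2BP2. TAP1, a subunit of the peptide transporter, was at 15.5 and 24.2 FPKM under TNF and at 5.06 and 5.08 FPKM under vehicle. Of the immunoproteasome subunits, PSMB9 was at 2.85 and 6.21 FPKM and PSMB10 at 14.9 and 32.8 FPKM. The authors' deposited table gave 1.08 for PSMB10, 1.05 for PSMB9, 0.89 for NLRC5, the class I transactivator, 0.86 for the peptidase ERAP1, which overlaps CAST, and 0.57 for TAP1. The classical genes HLA-B and HLA-C rose by 0.80 and 0.68 in the authors' deposited table, but reads of these similar genes may have been shared between them.

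**Figure D2:**
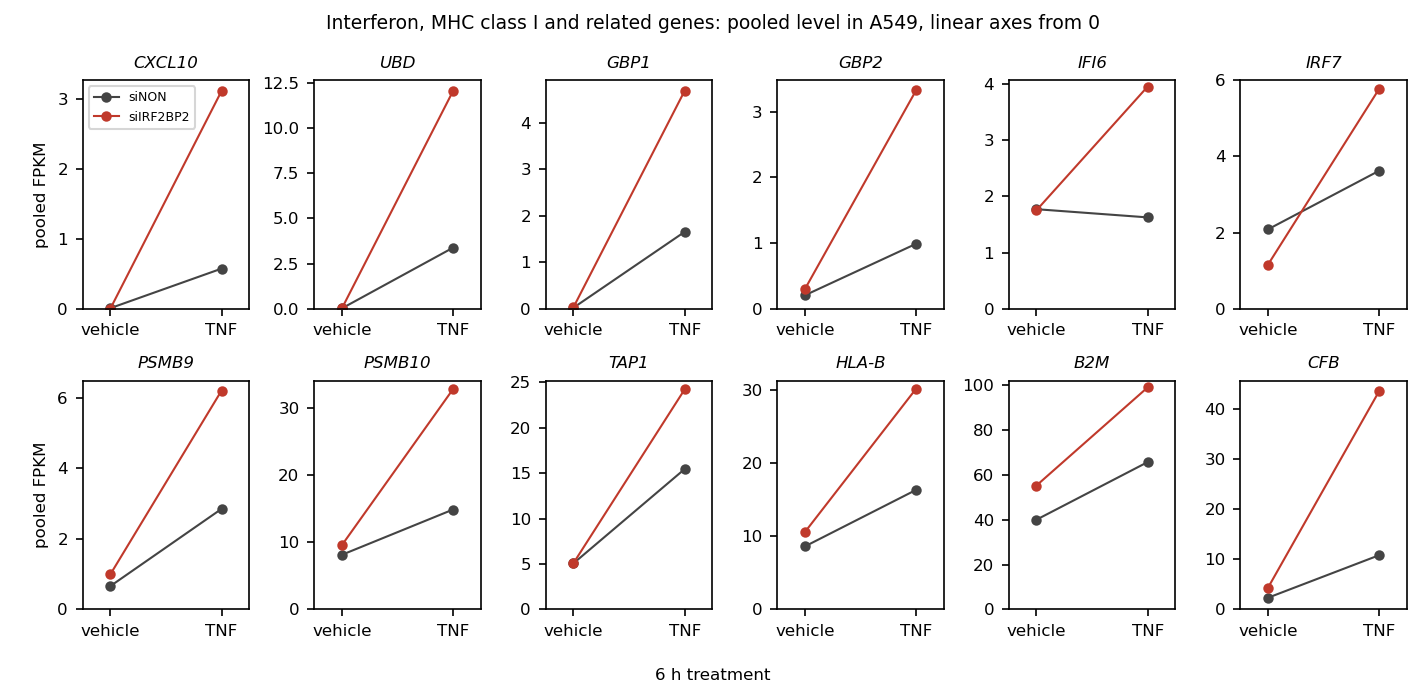
Pooled FPKM (y axis, linear, from 0) of 12 interferon, MHC class I and related genes under vehicle and TNF (x axis), in black with siNON and in red with siIRF2BP2, with 1 pooled value per point and no error bar. The lines lie close under vehicle for most genes and apart under TNF, as for TAP1, while IRF7 crosses.

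The TNF pathway itself did not move one way. Of 25 receptors and signal transducers, 12 rose and 6 fell in the authors' deposited table (median 0.18). TNFRSF1A, the main TNF receptor, was at 15.8 and 19.9 FPKM and rose by 0.26, and the second receptor, TNFRSF1B, rose by 0.90 in the authors' deposited table, to 0.198 FPKM. The adaptor TRADD, the ubiquitin ligase subunit RNF31 and the kinase MAP3K8 rose by 0.70, 0.66 and 1.07 in the authors' deposited table. Among NF-kB subunits the same table gave -1.32 for REL, -0.21 for NFKB1, -0.02 without a call for RELA and 0.22 for RELB, which was called lower under vehicle (-0.94). RELA was at 19.6 and 20.5 FPKM.

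NF-kB inhibitors and feedback genes divided evenly, with 5 of 15 higher and 5 lower in the authors' deposited table (median 0.09). NFKBIA, the main inhibitor and a direct NF-kB target, was at 143 and 147 FPKM and was not called (-0.06 in the authors' deposited table). TNFAIP3, the ubiquitin-editing enzyme also named A20, which overlaps LOC100130476, was at 14.5 and 19.6 FPKM under TNF and 0.993 and 0.600 FPKM under vehicle, with 0.34 and -0.87 in the authors' deposited table, both called. BCL3, a nuclear IkB protein, rose by 0.83, while ZFP36, which destabilises cytokine messages, fell by 0.94 in the authors' deposited table.

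Chemokines and cytokines split by gene. Of 19 tested, 7 rose and 8 fell in the authors' deposited table, with a median of -0.11. The neutrophil attractant CXCL8 was at 447 FPKM with siNON and 175 FPKM with siIRF2BP2, and CXCL1 at 166 and 88.7 FPKM. The authors' deposited table gave -1.49 for CXCL8 and -1.0 for CXCL1, and smaller falls for CXCL2 (-0.42) and CXCL3 (-0.36), whose sequences are close to that of CXCL1, while CXCL5 was not called (-0.11). Under vehicle CXCL8 was at 30.6 and 6.09 FPKM (-2.55 in that table) and CXCL1 at 30.5 and 15.3 FPKM (-1.17). In the same table the TNF response of CXCL8 was 3.92 with siNON and 4.97 with siIRF2BP2. That of CXCL1 was 2.53 and 2.69, and whether these responses differ was not tested. Of the attractants of monocytes and lymphocytes, under TNF CCL2 was at 139 and 250.3 FPKM and CXCL10 at 0.573 and 3.12 FPKM (60 and 357 reads). CCL2 rose by 0.76, CCL5 by 0.93 and CXCL10 by 2.35 in the authors' deposited table. IL6 rose from 3.33 to 4.96 FPKM (0.47 in the authors' deposited table), IL11 fell by 2.40, and IL1B was called lower under TNF (-0.86) and higher under vehicle (1.54).

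Adhesion and effector genes gave 11 of 25 higher and 6 lower in the authors' deposited table (median 0.16), beside 22.6% and 22.0% of all tested genes. PTGS2, the inducible cyclooxygenase, was at 424 FPKM with siNON and 76.7 FPKM with siIRF2BP2, a fall of 2.59 in the authors' deposited table. Under vehicle PTGS2 was at 172 and 30.7 FPKM, with -2.69 in that table. Its TNF response there was 1.36 with siNON and 1.46 with siIRF2BP2, a difference that was not tested. Under TNF CD83, an immune surface protein, fell by 2.04, IER3 by 1.29 and PLAUR, the urokinase receptor, by 1.07 in the authors' deposited table. ICAM1, the adhesion molecule, was at 40.9 and 41.8 FPKM and was not called. CFB, complement factor B, was at 10.8 and 43.5 FPKM, SERPINA3, an acute phase antiprotease, at 5.91 and 15.3 FPKM and UBD, a ubiquitin-like protein outside this list, at 3.38 and 12.1 FPKM. These 3 rose in the authors' deposited table by 1.93, 1.30 and 1.76. Genes strongly induced by TNF were thus found lower, higher and near the control level.

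**Figure D3:**
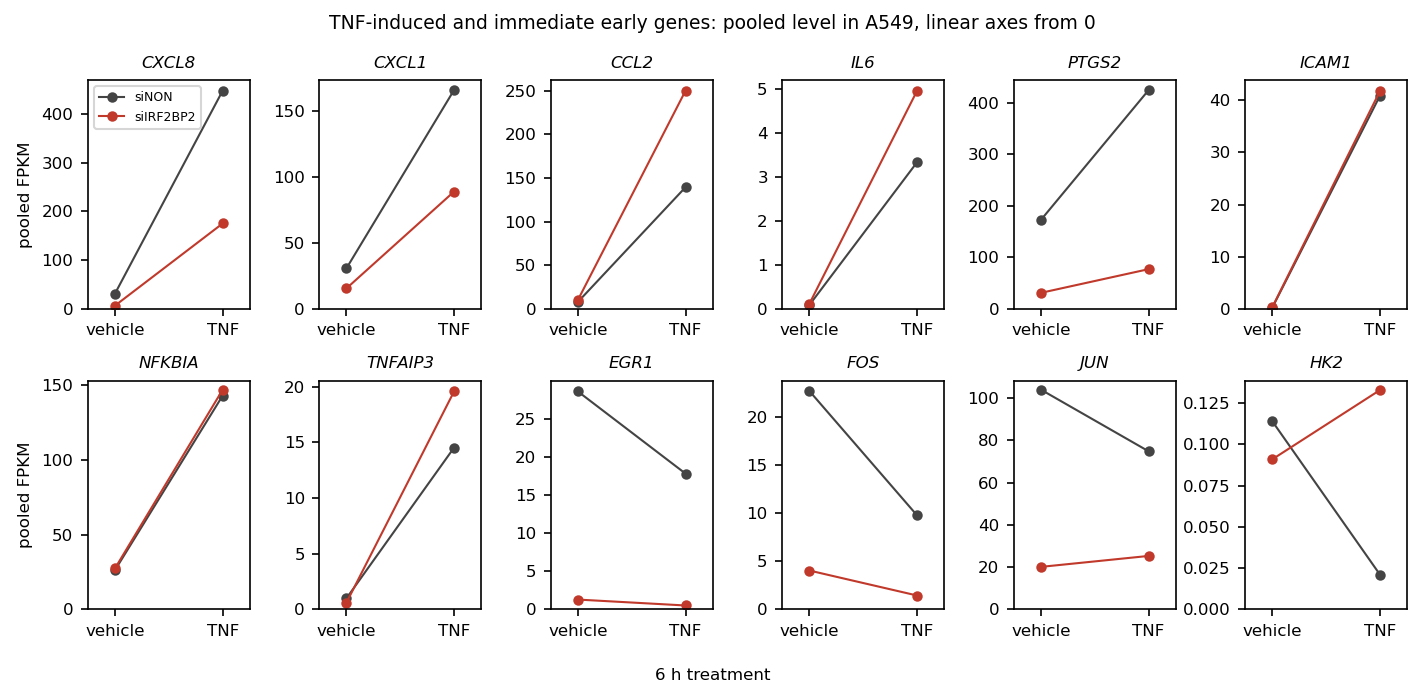
Pooled FPKM (y axis, linear, from 0) of 12 TNF-induced, immediate early and related genes under vehicle and TNF (x axis), in black with siNON and in red with siIRF2BP2, with 1 pooled value per point and no error bar. The siIRF2BP2 value is below siNON for CXCL8, PTGS2, EGR1 and JUN under TNF and also under vehicle. Under TNF it is above siNON for CCL2 and IL6, and beside it for ICAM1 and NFKBIA.

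Immediate early genes, which answer growth-factor and MAP kinase signals, were mostly lower. Of 34 tested, 26 fell and 1 rose in the authors' deposited table, with a median of -0.62 under TNF and -0.85 under vehicle. The AP-1 subunit FOS was at 9.80 and 1.45 FPKM, FOSB at 2.15 and 0.297 FPKM and JUN at 74.9 and 25.3 FPKM. The authors' deposited table gave -2.87 for FOS, -2.96 for FOSB, -1.68 for JUN, -2.17 for the EGF receptor ligand EREG, -1.61 for the nuclear receptor NR4A1 and -2.57 for KLF2. JUNB was the member that rose (0.36 in the authors' deposited table), and MYC was not called (0.06). DUSP6 and SPRY4, feedback inhibitors of the MAP kinase pathway, fell by 0.49 and 0.32 in the authors' deposited table.

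Cholesterol synthesis genes, targets of the factor SREBF2, were lower with and without TNF. Of 24 tested, 18 fell and 1 rose in the authors' deposited table, with medians of -0.54 under TNF and -0.56 under vehicle. INSIG1, which retains the SREBP complex, was at 36.7 and 12.8 FPKM. SREBF2 fell by 0.85 and HMGCS1, an early enzyme of the pathway, by 1.09 in the authors' deposited table. STARD4, a sterol carrier, was the member that rose (0.31 in the authors' deposited table).

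More hypoxia and glycolysis genes rose than fell under TNF, with 12 of 23 higher and 2 lower in the authors' deposited table (median 0.46). Under vehicle 4 were higher and 5 lower (median -0.14), where 18.6% of all tested genes were higher and 20.8% lower. Under dex plus TNF 11 were higher and 4 lower (median 0.15), beside 20.7% and 20.7% of all. All 23 had a higher value under TNF than under vehicle, as did 7493 of the 14111 tested genes, a difference that was not tested. PFKFB4, a regulator of glycolysis, rose by 1.79, EGLN3, an oxygen-sensing hydroxylase, by 1.45 and PDK1, which restrains pyruvate use, by 1.04 in the authors' deposited table. VEGFA and ADM fell by 0.36 and 0.27 in the authors' deposited table. With siNON, EGLN3 was at 0.872 FPKM under vehicle and 0.288 FPKM under TNF, and with siIRF2BP2 at 1.47 and 0.819 FPKM.

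The unfolded protein and amino acid stress list held calls in both directions, with 12 of 23 higher and 9 lower in the authors' deposited table (median 0.28). Members that rose included chaperone and degradation genes of the endoplasmic reticulum, with DNAJB9 (overlapping THAP5) at 1.34, HERPUD1 at 1.02 and CRELD2 at 0.90 in the authors' deposited table. Members that fell included amino acid response genes, with ATF3 at -1.43, CHAC1 at -1.08 and ASNS at -0.90 in the authors' deposited table, and HSPA5, the main chaperone of that compartment, fell by 0.48.

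Of 25 NRF2 targets, which counter oxidants, 13 fell and 3 rose in the authors' deposited table (median -0.27), HMOX1, the haem oxygenase, from 10.5 to 4.59 FPKM. Glucocorticoid receptor induced genes, here without dex, gave 12 lower and 4 higher of 26 (median -0.24 in the authors' deposited table), with TSC22D3, known as GILZ, at -2.39 and PER1 at -2.29. The list of metallothioneins, which also holds the zinc exporter SLC30A1, gave 4 of 5 lower and none higher (median -0.86 in the authors' deposited table). Epithelial genes gave 9 lower and 4 higher of 19, with KRT19 at -1.29 and CLDN2, a claudin, at 1.00 in the authors' deposited table. YAP and TEAD targets gave 13 lower and 5 higher of 27 (median -0.23 in the authors' deposited table), beside 22.0% and 22.6% of all tested genes.

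In acute phase, complement and coagulation genes 10 of 23 rose and 5 fell in the authors' deposited table, the fibrinogen chain FGG by 1.65 and the complement protease C1S by 0.97. Among p53 targets 7 of 23 rose and 9 fell in the authors' deposited table, GDF15, a stress cytokine, from 79.4 to 25.5 FPKM. Cell cycle genes gave 11 higher and 3 lower of 31 (median 0.11 in the authors' deposited table), with RRM2, a ribonucleotide reductase subunit, at 0.82. Matrix and mesenchymal genes gave 7 higher and 3 lower of 23, with the gelatinase MMP2 at -2.09 and TGFBI at 0.68 in the authors' deposited table. In the family and partners of IRF2BP2, 5 of 13 rose and 5 fell in the authors' deposited table, with the paralog IRF2BPL at 0.77, VGLL4 (overlapping ATG7) at 0.84, IRF2 at 0.47 and NFATC1 at -0.91.

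**Figure D4:**
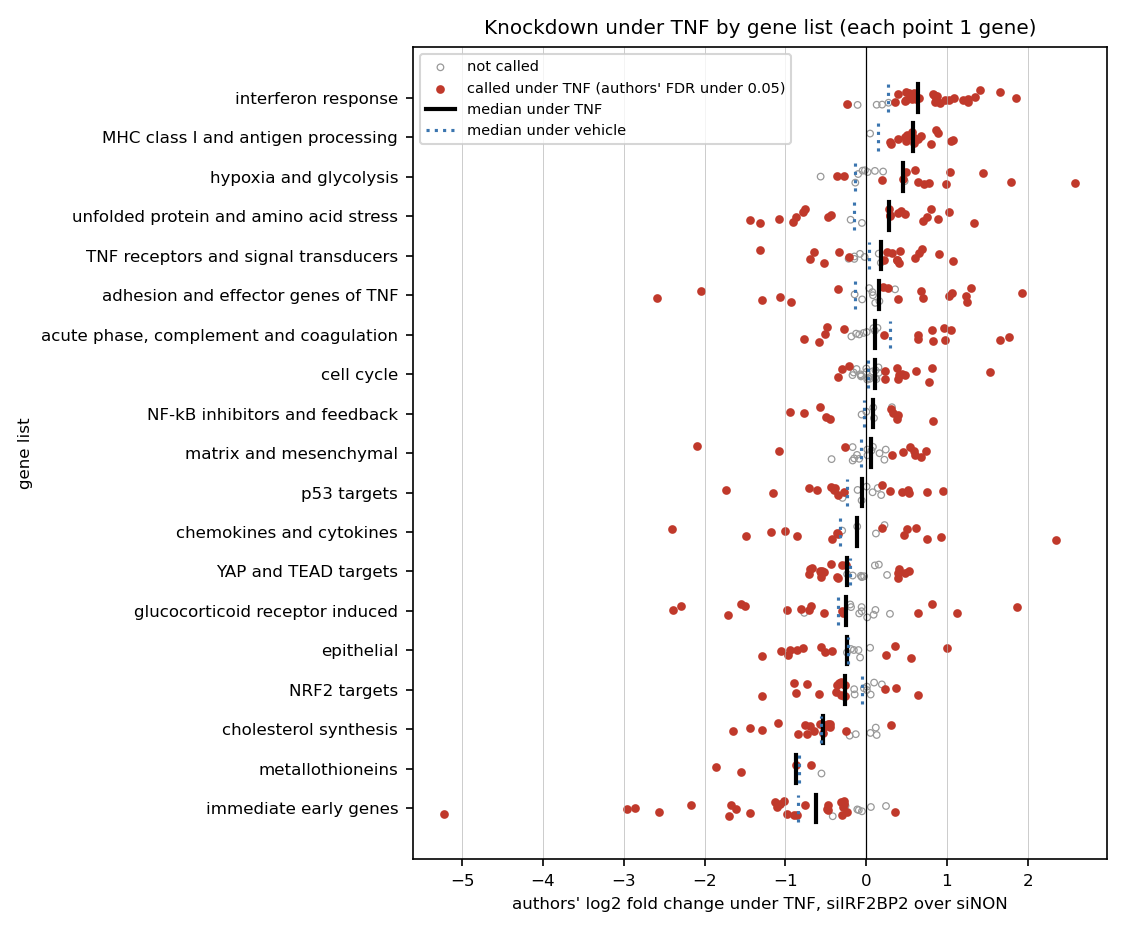
Log2 fold change under TNF (x axis, siIRF2BP2 over siNON, from the authors' deposited table) of each tested member of 19 gene lists (y axis), filled where called, with the list's median under TNF as a black bar and under vehicle as a dotted blue bar. The interferon and MHC class I medians lie at 0.64 and 0.58 and to the right of their vehicle medians, while those of cholesterol synthesis lie together at -0.54 and -0.56.

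The knockdown under vehicle shares no sample with that under TNF, so both can be set side by side. By the authors' deposited table, genes called higher in both numbered 1840, which is 57.7% of those higher under TNF and 70.1% of those higher under vehicle (18.6% of all tested genes were higher under vehicle). For genes called lower the overlap was 2218, or 71.3% and 75.7% (20.8% of all were lower under vehicle). Opposite calls were rare, with 28 genes higher under TNF and lower under vehicle and 17 the other way. Across genes, which are not independent replicates, Pearson's r of both sets of fold changes was 0.77, and it was 0.75 with the knockdown under dex and 0.83 with that under dex plus TNF. Under dex 17.5% of tested genes were called higher and 18.9% lower in the authors' deposited table, and under dex plus TNF 20.7% and 20.7%. In all 4 treatments 1199 genes were called higher and 1598 lower, and 520 higher and 349 lower genes were called under TNF alone, whose difference from the other treatments was not tested.

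**Figure D5:**
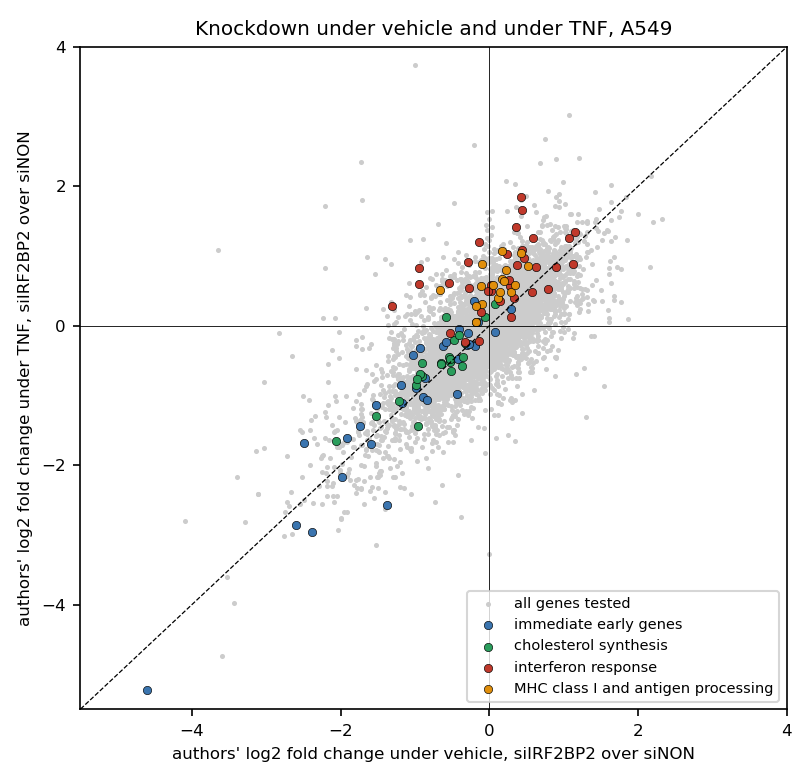
Log2 fold change of the knockdown under vehicle (x axis) and under TNF (y axis), both siIRF2BP2 over siNON from the authors' deposited table, for 14111 genes in grey and 4 lists in colour, with equal values on the dashed line. Immediate early and cholesterol synthesis genes lie mostly at lower left, and interferon and MHC class I genes mostly above the dashed line.

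The response to TNF within each siRNA uses the same TNF columns as the knockdown, so its values are given beside it and not as separate evidence. By the authors' deposited table, TNF raised 1617 genes with siNON (11.5% of those tested) and 2985 with siIRF2BP2 (21.2%), and lowered 1515 and 2988 (10.7% and 21.2%). For the interferon list the median TNF response was 1.41 with siNON and 1.94 with siIRF2BP2, and for the MHC class I list 0.86 and 1.30. For the hypoxia list it was -0.43 and 0.05. Whether these responses differ between siRNAs was not tested.

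In HEK293-GR cells no TNF was given, and the knockdown there was set beside that in A549. The labels list 4 samples per HEK293-GR group, of which replicates 1 to 3 have a column and are given here, and the fourth was not analysed here. Of the genes lower in A549 under TNF, 9.65% were lower after the knockdown under vehicle in the authors' deposited table for HEK293-GR (3.44% of all tested genes), and of the genes higher in A549 4.51% were higher there (2.01% of all). Under dex the shares were 39.0% and 30.6%, where 25.3% and 22.8% of all genes were called lower and higher. Opposite calls under dex covered 15.5% of the genes lower in A549 and 17.1% of those higher. Across genes, Pearson's r with the A549 fold changes under TNF was 0.23 under vehicle and 0.21 under dex. IRF2BP2 itself stood at -0.86 under vehicle and -0.97 under dex in the authors' deposited table for HEK293-GR. TGFA fell in HEK293-GR as well, from 3.30, 3.39 and 3.58 FPKM with siNON to 1.27, 1.64 and 1.48 FPKM with siIRF2BP2 under vehicle, with no overlap between the libraries (-1.24 in the authors' deposited table). EGR1 was at 10.0, 7.67 and 5.80 FPKM with siNON and 8.09, 7.46 and 9.84 FPKM with siIRF2BP2 there under vehicle, and these libraries overlapped. Under dex it was at 9.14, 9.33 and 8.61 FPKM with siNON and 5.78, 6.91 and 7.05 FPKM with siIRF2BP2, with no overlap, and was called lower (-0.48 in the authors' deposited table, FDR 1.52e-07). Some genes lower in A549 were called higher in HEK293-GR in the authors' deposited table. CXCL8 was called higher there under vehicle (2.23) and dex (1.88), as was FOSB (0.76 and 0.72). FOS was called higher under dex (0.49) and not called under vehicle (0.27). PTGS2 was called higher under vehicle (0.89) and not called under dex (0.23). Of the genes lower in A549, 36 were called higher in HEK293-GR under vehicle and 300 lower.

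IRF2BP2 binding was measured by chromatin immunoprecipitation in HEK293-GR cells alone. Of the 1108 peaks of vehicle-treated cells, a peak centre lay within 1 kb of the start of 0.404% of tested genes, of 0.740% of genes lower under TNF in A549 and of 8 of 560 genes (1.43%) lower by at least 1. Those 8 were FOS, FOSB, NR4A3, NR1D2, CHAC1, HES4, HOMER1 and RRAS. Of genes higher by at least 1, 1 of 231 (0.433%) had such a peak. Within 10 kb the shares were 2.86% of genes lower and 2.60% of genes higher by at least 1, beside 1.32% of all. For the 1400 peaks of dex-treated cells, the shares within 1 kb were 0.536% of genes lower by at least 1 and 0.241% of all. Binding in A549 cells was not analysed here.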

How the data were processed

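RNA of 6 A549 samples (siNON and siIRF2BP2 under TNF, 3 each) was used, with the other A549 groups, HEK293-GR RNA and IRF2BP2 peaks beside it. The submitters' processing notes name FastQC, Bowtie2, TopHat2, HOMER, Trimmomatic 0.33 and edgeR for the RNA samples and hg19 as build; for ChIP they name bedtools, HOMER 4.10.3, FastQC and Bowtie 0.12.9, without roles. Per the file headers, the authors deposited FPKM, pooled over 3 replicates per A549 group. The log2 fold changes, and the p-value and FDR beside them, are the authors' deposited comparisons. The score in the deposited peak files was not used.

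One transcript per symbol was kept for A549, that with the highest mean of FPKM times length over 8 columns. For HEK293-GR the first transcript listed for each symbol was taken, without matching it to the A549 transcript. FPKM times length gave whole reads for 100.0% of the low values checked (tolerance 0.02 reads), and so the tags per column. The functions were tested on simulated data. The pooled columns allow no spread, interval between samples or test. Genes with a mean of at least 30 reads were counted at an FDR under 0.05. Overlapping transcripts share reads, and strand use in counting is not given in the sources used here.

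The members and gene lists were chosen with earlier results of these data known. Named genes were IRF2BP2; the 12 largest rises and falls with an FDR under 0.05, at least 5 CPM (reads per M tags) in the higher column and an FPKM ratio of the same sign, without non-coding names; up to 4 called members per list by FDR (6 for the TNF, NF-kB, chemokine, effector and immediate early lists); members called in opposite directions under TNF and vehicle; and 12 key members. Other genes named were chosen after their values were seen, and some that the rule picks are not reported here. Alternatives were other thresholds, transcripts, filters and pseudocounts (0.01, 0.1 and 1). Python 3.11.15, pandas 2.3.3 and numpy 2.4.6 were used.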

Additional observations from a re-analysis of the deposited data

How the results depend on the processing

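With every transcript counted, 7060 were higher and 7072 lower, and at least 1 on the log2 scale 231 and 560 genes. The counts stayed within 1.5 times of 3190 and 3109 at an FDR under 0.01 (2427 and 2509), with a mean of at least 300 reads (2654 and 2658), without a filter, with other transcripts, and with the FPKM ratio on the same side of its median. IRF2BP2 moved from -0.40 to -0.30 as an FPKM ratio with a pseudocount of 0.1 or 0.01 and to -0.29 with 1, and was -0.37 after subtracting the median ratio of all genes (0.070). The authors' deposited log2 fold changes lay 0.086 below the FPKM ratios in the median gene (an offset of -0.086). No named gene changed its call or direction with the longest transcript or that of highest FPKM, and no called named gene changed sign as an FPKM ratio. Sizes did change. With a pseudocount of 0.1, 92 named genes moved by more than the counting error of their reads and 38 did not, and with 1 it was 109 and 21. Genes at low FPKM shrank most at 0.1: CREB3L1 from -2.68 to -0.92, TGFA from -2.99 to -1.46, SPNS2 from -3.02 to -1.8, HK2 from 2.59 to 0.95 and ATOH8 from 2.39 to 1.01. PTGS2, at high FPKM, went from -2.59 to -2.47. Medians of 5 lists changed sign or reached 0 in a setting: p53 targets (-0.06) went to 0.02 and the IRF2BP2 family (-0.06) to 0.01 as FPKM ratios with a pseudocount of 0.1, metallothioneins (-0.86) to 0.0 without a filter, and the HEK293 (0.0) and blood, endothelial and fibroblast markers (-0.16) to 0.25 and 0.31 with at least 300 reads.

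No paired analysis was possible because the deposited A549 columns are pooled and carry no replicate. For the same reason leaving out single samples and the replicate block were not run. Depth limits genes such as HK2, at 55 reads with siNON.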

Other observations

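The genes below lie outside the lists above, or were taken beside list members, and were chosen after their values were seen. The ID family was higher under TNF: ID3 was at 42.4 FPKM with siNON and 99.6 FPKM with siIRF2BP2, and ID2 at 10.4 and 18.4 FPKM. In the authors' deposited table ID3 rose by 1.15 and ID2 by 0.74, BAMBI, a decoy receptor of the BMP and TGF-beta pathway, by 0.65, and BMP4, a ligand of it, by 0.60. Of the inhibitory SMAD genes SMAD7 rose by 0.96 and SMAD6 fell by 0.27 in the authors' deposited table.

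Several clock genes were lower. The authors' deposited table gave -1.78 for PER3, -1.20 for NR1D2, -1.20 for TEF, -1.31 for CIART, -0.79 for CRY1 and -0.61 for PER2. ARNTL (-0.10), CLOCK (0.20), CRY2 (0.17) and BHLHE40 (-0.02) were not called in the authors' deposited table.

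Among non-coding RNAs, NEAT1, the scaffold of nuclear paraspeckles, was at 350.1 FPKM with siNON and 102.5 FPKM with siIRF2BP2 under TNF, and at 346 and 105 FPKM under vehicle. MIR210HG, the host gene of a hypoxia-induced microRNA, was at 0.272 and 1.87 FPKM under TNF. BRE-AS1, an antisense RNA, was at 49.5 and 3.43 FPKM, and reads of the opposite strand may have been counted with it. C15orf48 was at 7.21 and 23.1 FPKM under TNF and 0.361 and 0.530 FPKM under vehicle.

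Genes called in opposite directions also included SLC2A6, a sugar transporter, at 0.72 under TNF and -0.53 under vehicle in the authors' deposited table, and HELZ2, an interferon-induced helicase, at 0.60 and -0.63. WARS, the tryptophan tRNA ligase, was at 0.40 and -0.42 and CXCR4, a chemokine receptor, at 0.62 and -1.08 in the authors' deposited table.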
